A study of Mus musculus with 2 samples.

Results

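Laminin and integrin genes were examined on a pair of Illumina mouse whole-genome arrays, one for HOM mice and one for WT mice. The members were all probes whose array gene symbol is that of a laminin chain (*Lama*, *Lamb* or *Lamc* with a number) or of an integrin alpha or beta subunit. The rule found 81 probes of 34 genes, out of 34885 probes with 1 gene symbol that named 19057 genes. They comprised 19 probes of 9 laminin genes and 62 probes of 25 integrin genes, of which 17 encode alpha subunits and 8 encode beta subunits. HOM mice were homozygous for Y123F, a leptin receptor allele with phenylalanine in place of 3 tyrosines of LepRb, the long receptor form. WT mice were wild-type littermates. Both groups were female, 12 weeks old and of C57BL/6 background, the Y123F line by backcrossing, and genotypes had been read from tail DNA. Each genotype was 1 pool of RNA on 1 array. The pool size is given as 3 mice per group in the Methods and as 6 mice in the supplement. Without replicates there was neither an error nor a p-value for any gene, and each ratio describes these 2 pools.

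The signals are background-subtracted intensities as the authors deposited them, in arbitrary units, and detection was called where the detection p-value was below 0.01. The HOM array detected 34.4% of all 45281 probes and the WT array 32.9%, and the dimmest detected signal was 15.9 on HOM and 15.1 on WT. The log2 HOM/WT values were taken after background correction, addition of 16 and quantile normalization, and the added value shrinks the ratios of dim probes. Each gene took the value of its brightest probe. It was counted as higher or lower only where log2 HOM/WT reached 1 in either direction, which is a 2-fold rule of size. The label of the tissue was ovary, but only 4 of 18 measured ovarian markers were detected on at least 1 array, against 11 of 14 uterine markers and 7 of 8 smooth muscle markers. Over all named genes the detected share was 51.5%. *Cyp17a1*, *Star*, *Amh* and *Zp3*, defining genes of ovarian cells, were among those not detected. The detected ovarian markers were *Inha* and *Gdf9* on both arrays, *Bmp15* on HOM only and *Zp2* on WT only. The uterine markers not detected were *Hoxa10*, *Hoxd11* and *Hoxa13*. The values below are therefore those of RNA labelled as ovary. Neither of the 2 *Lepr* probes was detected on either array, so no *Lepr* ratio is given, and the arrays did not check the genotype labels. The paper measured ovarian *Lepr* mRNA separately and reported it to be higher in HOM than in WT.

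Laminins are large secreted proteins, each assembled from an alpha, a beta and a gamma chain, which polymerize into the sheet that founds a basement membrane. In the reproductive tract such membranes underlie the epithelium and surround smooth muscle cells, vessels and, in the ovary, follicles. Integrins are receptors of an alpha and a beta subunit that hold cells to laminin, collagen, fibronectin or the surface of other cells, and connect them to actin or keratin filaments. Which ligand is bound is set largely by the alpha subunit, and the leukocyte integrins are a separate branch that serves adhesion between cells.

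Of the 34 genes, 25 were detected on at least 1 array, including all 9 laminins and 16 of the 25 integrins. Over all genes the detected share was 51.5%. One member, *Itgb7*, was higher in HOM by at least 2-fold, and none was lower by as much. Among all 9817 detected genes, 0.418% were higher and 1.49% lower by that rule. At 1.5-fold, *Itgb7* was again the only higher member (5.27% of all detected genes), and *Lamb1* and *Lamc3* were lower (8.3% of all). The remaining members lay between -0.69 for *Lamc3* and 0.56 for *Lama1* on the log2 scale. For 19 of the 25 (76%) the absolute log2 HOM/WT was no more than 0.33, the SD between detected probes of the same gene over 3225 genes with several such probes, and the same held for 59.3% of all detected genes. In deposited signal, 19 of the 25 members were brighter on the HOM array and 6 were dimmer. Of all detected genes 73.6% were brighter on it, so the HOM array was the brighter one as a whole. After quantile normalization 15 members had a log2 HOM/WT above 0 and 10 below it, near the 53.8% of all detected genes above 0.

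**Figure D1:**
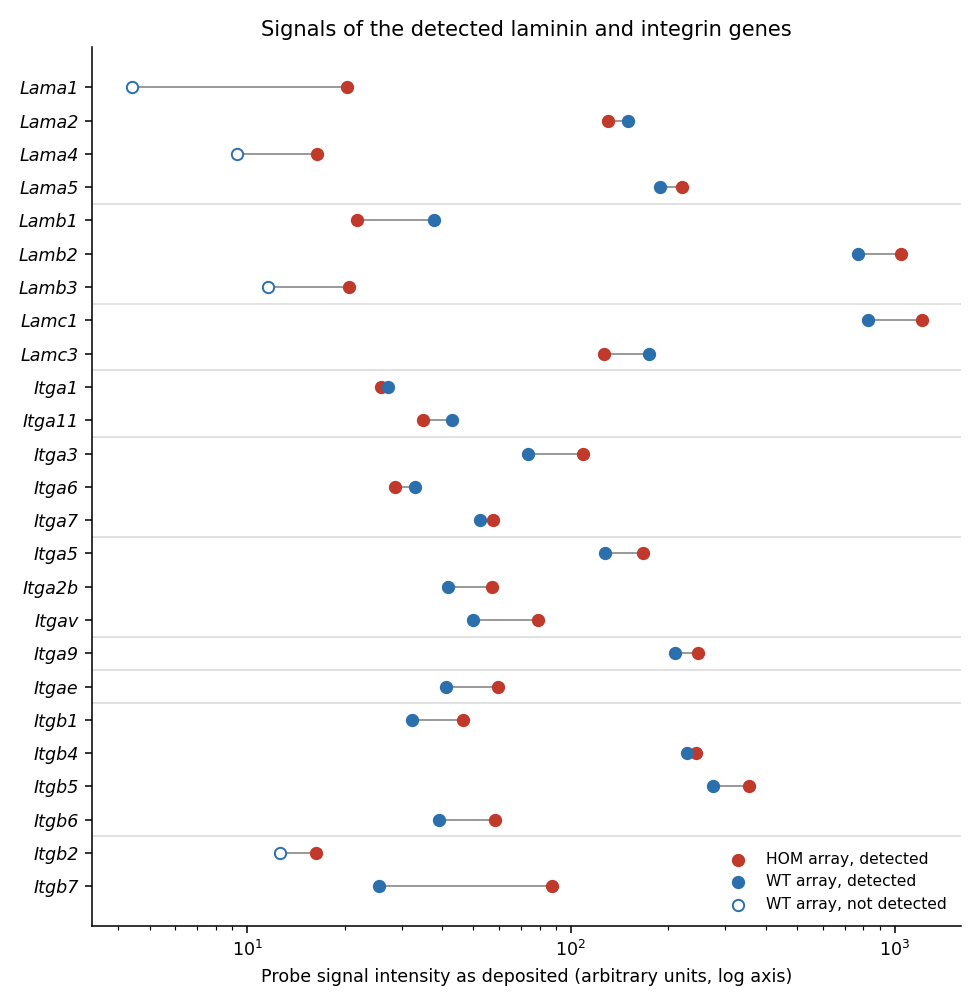
Deposited signal intensity of the brightest probe (log axis, arbitrary units) of the 25 detected laminin and integrin genes on the HOM array (red) and the WT array (blue), 1 array each. Open circles mark the 4 genes that the WT array did not detect, and lines separate the groups of chains and subunits. *Itgb7* has the widest gap among genes detected on both arrays, with 87.3 on HOM and 25.6 on WT.

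The alpha chains carry the domain that integrins and dystroglycan bind. *Lama5*, the alpha chain of most adult epithelial and vascular basement membranes, had a signal of 220.0 on the HOM array and 188 on the WT array (log2 HOM/WT -0.07). *Lama2*, whose chain predominates around muscle fibers and in peripheral nerve, had 130.0 on HOM and 150.2 on WT (log2 HOM/WT -0.46). The smooth muscle marker list, a possible source of this chain, had 7 of 8 genes detected, 2 with a log2 HOM/WT above 0 and 5 below, and a median of -0.05. *Myocd*, a coactivator of smooth muscle genes, was past 2-fold lower, with 124 on HOM and 218 on WT (log2 HOM/WT -1.02, and -0.94 as the mean of its detected probes). *Lmod1* had -0.43, and *Smtn* had 0.50, or 0.24 as the mean of its detected probes. *Tagln* had -0.14, *Des* -0.05, *Myh11* -0.004 and *Acta2* 0.03. All 7 listed fibroblast and stroma markers were detected, 4 with a log2 HOM/WT above 0 and 3 below, with a median of 0.05. Among them *Dcn* had -0.74, *Pdgfra* -0.65 and *Col1a1* 0.42. The part of muscle or stroma content in the *Lama2* value was not tested. Since the RNA came from whole tissue, fewer cells of a type and less RNA per cell cannot be told apart for any of these values.

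The other alpha chains were at the limit of detection. *Lama1*, the chain of early embryonic basement membranes, was detected on the HOM array only, with a signal of 20.4 on HOM and 4.40 on WT. Against the dimmest detected probe of the WT array it was at least 1.07-fold higher, a bound too close to 1 to give a clear direction. *Lama4*, the alpha chain of vessel walls and mesenchymal tissue, was also detected on the HOM array only, by 1 of its 5 probes, with 16.4 on HOM and 9.33 on WT, and no bound above 1 could be set. *Lama3* of epithelial anchoring had no named probe.

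Among beta chains, *Lamb1* and *Lamb2* are alternatives that can occupy the same place in a laminin, *Lamb1* being the earlier and more widespread form and *Lamb2* typical of muscle, vessels and the glomerulus. *Lamb1* had a signal of 21.9 on the HOM array and 37.7 on the WT array, a HOM/WT ratio of 0.627 and a log2 HOM/WT of -0.67. *Lamb2* had 1045 on HOM and 772 on WT (log2 HOM/WT 0.12). The ratios of the alternative chains thus lay on either side of 1, with the *Lamb2* ratio within the probe SD and the *Lamb1* ratio outside it. The *Lamb1* value rests on 1 dim probe and became -1.04, past 2-fold, when neither background correction nor offset was used or in the authors' normalized table. It was -0.67 without background correction but with 16 still added, and -0.38 with 50 added. *Lamb3*, the beta chain of the laminin that anchors epithelium, was detected on the HOM array only, with 20.7 on HOM and 11.6 on WT, and was at least 1.08-fold higher there, which likewise gives no clear direction.

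*Lamc1* encodes the gamma chain shared by most laminins. Its brightest probe had a signal of 1210 on HOM and 827 on WT (log2 HOM/WT 0.22), and its other probe had 931 and 545 (log2 HOM/WT 0.45). Both probes were thus brighter on the HOM array, and both ratios stayed above 1 after normalization. *Lamc3*, a gamma chain of restricted occurrence, had a signal of 127 on HOM and 174 on WT (HOM/WT = 0.621, log2 HOM/WT -0.69), close to the ratio of *Lamb1*, which was the lower of the pair after median scaling (-0.78 for *Lamb1* and -0.69 for *Lamc3*). A second detected probe of *Lamc3* had 57.2 on HOM and 51.5 on WT (log2 HOM/WT -0.09), so the probes of this gene did not share the size of the difference. The remaining 2 of its 4 probes were not detected.

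For the 9 laminins the median of log2 HOM/WT was 0.12, against 0.04 for all detected genes, with 5 values above 0 and 4 below. Over the 6 laminins detected on both arrays the median was -0.27, and with the 3 detected on HOM only at their bounds it was -0.06. Those 3 had measured values above the median of 0.12, so leaving them out could only lower it. Their bounds are lower limits and not estimates. The sign of the laminin median therefore turned on how the genes close to background were treated. No laminin was seen on WT alone and 3 were seen on HOM alone, while 7.53% of all detected genes were seen on HOM only and 4.35% on WT only.

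**Figure D2:**
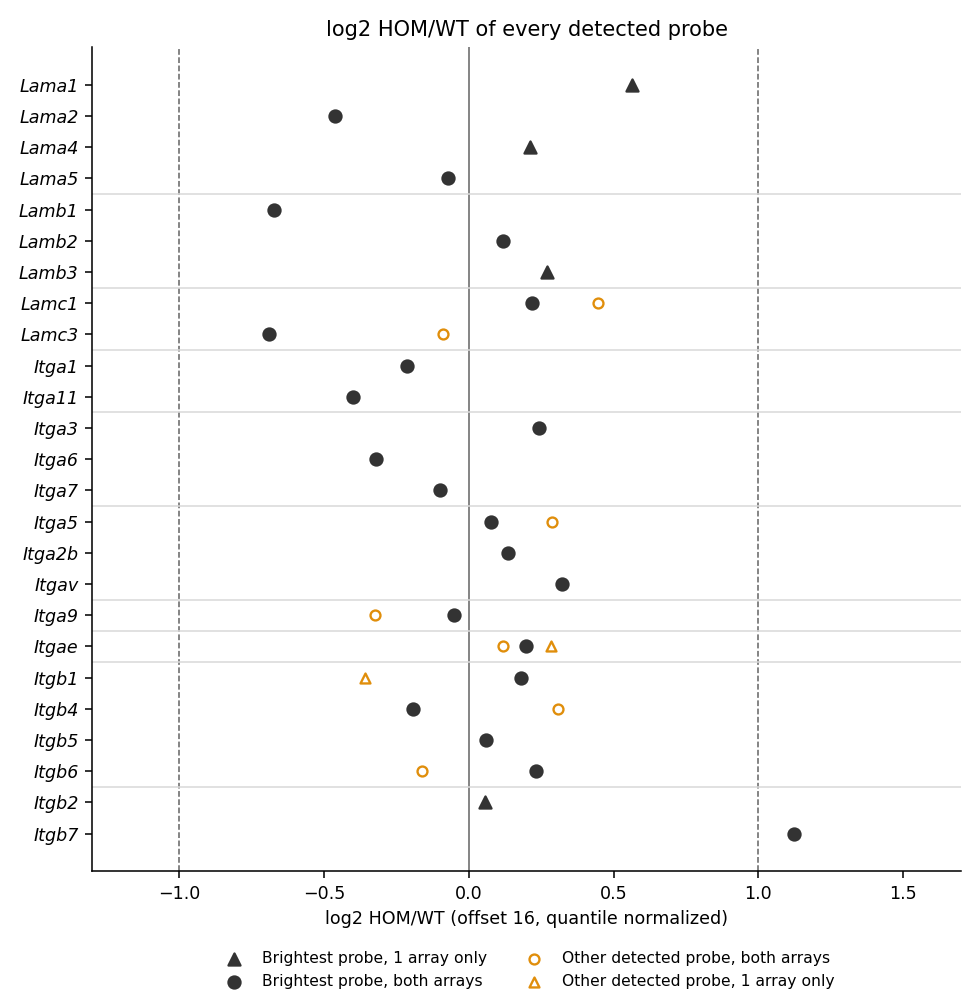
log2 HOM/WT (offset 16, quantile normalized) of every detected probe of the 25 detected members, with the brightest probe filled and other detected probes open. Triangles are probes detected on 1 array only, for which the plotted value is the measured ratio and not the bound, and dashed lines mark 2-fold. *Itgb7*, at 1.12, is the only point beyond a dashed line, and *Itgb1*, *Itgb4* and *Itgb6* have probes on both sides of 0.

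The alpha subunits of laminin receptors were all detected on both arrays. *Itga3*, which binds laminins of epithelial basement membranes, had a signal of 109 on the HOM array and 73.9 on the WT array (log2 HOM/WT 0.24). *Itga6*, which joins either *Itgb1* or, in hemidesmosomes, *Itgb4*, had 28.7 on HOM and 33.0 on WT (log2 HOM/WT -0.32). *Itga7*, the laminin receptor of muscle, had 57.6 on HOM and 52.3 on WT (log2 HOM/WT -0.10, and 0.11 without scaling between the arrays). All 3 values were within the probe SD.

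Of the collagen receptors, *Itga1* and *Itga11* were detected. *Itga1*, a receptor for basement membrane collagen on smooth muscle and other cells, had a signal of 25.9 on HOM and 27.3 on WT (log2 HOM/WT -0.21). *Itga11*, a receptor for fibrillar collagen on fibroblasts, had 35.0 on HOM and 42.8 on WT (log2 HOM/WT -0.40). Both were dimmer on the HOM array, where most genes were brighter, but by amounts within or little beyond the probe SD. *Itga2* was not detected and *Itga10* had no named probe.

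The alpha subunits that recognize the RGD motif of fibronectin and vitronectin had ratios above 1 throughout, all within the probe SD. *Itga5*, the main fibronectin receptor subunit, had a signal of 167 on HOM and 127 on WT (log2 HOM/WT 0.08), with a second probe at 48.0 and 30.0 (log2 HOM/WT 0.29). *Itgav*, which serves vitronectin binding and activation of latent TGF-beta, had 79.0 on HOM and 49.8 on WT (log2 HOM/WT 0.32), by 1 of its 5 probes. *Itga2b*, the platelet fibrinogen receptor subunit, had 56.9 on HOM and 41.8 on WT (log2 HOM/WT 0.14). Of 6 other megakaryocyte and platelet markers only *Pf4* was detected, on the WT array. *Itga8* was not detected. *Itga9*, found on smooth muscle and lymphatic endothelium, had 247 on HOM and 209 on WT (log2 HOM/WT -0.05) and on its other detected probe 34.8 and 39.7 (log2 HOM/WT -0.32).

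*Itgb1* is the beta subunit common to the laminin, collagen and fibronectin receptors. Its brighter probe had a signal of 46.4 on HOM and 32.3 on WT (log2 HOM/WT 0.18). Its other probe had 13.6 on HOM, not detected, and 19.4 on WT, and was at least 1.21-fold lower, so the direction for *Itgb1* was not settled by its probes. *Itgb4*, the hemidesmosome subunit with a long cytoplasmic tail that binds plectin, had 243 on HOM and 228 on WT on one probe (log2 HOM/WT -0.19) and 168 on HOM and 107 on WT on the other (log2 HOM/WT 0.31). *Itgb6*, restricted to epithelium, had 58.1 on HOM and 39.2 on WT (log2 HOM/WT 0.23), and on a second detected probe 26.9 on HOM and 26.7 on WT (log2 HOM/WT -0.16). For these 3 of the 8 members with several detected probes, the probes disagreed in sign. *Itgb5*, a vitronectin receptor subunit of many cell types, had 354 on HOM and 274 on WT (log2 HOM/WT 0.06). *Itgb3* and *Itgb8*, further partners of *Itgav*, were not detected.

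*Itgb7* was the member with the widest difference. It encodes the beta subunit that pairs with the product of *Itga4* on lymphocytes that home to mucosa, and with that of *Itgae* on lymphocytes lodged in epithelium, where the ligand is E-cadherin. *Itgb7* had a signal of 87.3 on the HOM array and 25.6 on the WT array, with detection on both, a HOM/WT ratio of 2.18 and a log2 HOM/WT of 1.12. It ranked 22 from the top of the 9817 detected genes. The gene has 1 probe, so no second probe could check the value. It was 1.05 after median scaling, 1.32 without scaling and 1.50 in the authors' normalized values, and 0.73, short of 2-fold, with an offset of 50.

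The partners of *Itgb7* were not past 2-fold. *Itgae* had a signal of 59.7 on HOM and 41.3 on WT on its brightest probe (log2 HOM/WT 0.20). Its second detected probe had 52.8 on HOM and 39.4 on WT (log2 HOM/WT 0.12), and one more, detected on HOM only, had 19.2 and 10.1. All 3 of these *Itgae* probes were thus brighter on the HOM array, with normalized ratios within the probe SD. None of the 6 *Itga4* probes was detected, the brightest having 15.4 on HOM and 3.84 on WT. Of the ligands of these receptors, *Cdh1* (E-cadherin) had 235 on HOM and 272 on WT (log2 HOM/WT -0.48), *Vcam1* had 47.6 and 38.1 (log2 HOM/WT 0.04), and the mucosal homing ligand *Madcam1* was not detected.

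The other leukocyte integrins were at or below the limit. *Itgb2*, the beta subunit common to most of them, had a signal of 16.3 on HOM, just detected, and 12.6 on WT, not detected, and no bound above 1 could be set. *Itgal* of lymphocytes, *Itgam* of myeloid cells, *Itgax* of dendritic cells and *Itgad* were not detected. Leukocyte markers stood on the same side as *Itgb7*. Of 10 listed, 6 had a named probe and 5 were detected, each of the 5 with a log2 HOM/WT above 0 and with a median of 0.59. Among all detected genes 53.8% were above 0 and the median was 0.04. The T cell receptor component *Cd3e* was past 2-fold, with 72.6 on HOM and 19.9 on WT (log2 HOM/WT 1.13). *Laptm5*, a lysosomal protein of blood cells, had 0.68 on the log2 scale, *Cd3g* 0.59, *Lyz2* of myeloid cells 0.48 and *Csf1r* of macrophages 0.18. As the mean of its detected probes *Lyz2* had only 0.17, within the probe SD, so its size depended on the probe. The corresponding mean was 0.28 for *Csf1r*, and for *Cd3e* it also lay above the value of the brightest probe. The summed deposited signal of the list was 3161 on HOM and 1681 on WT, a ratio of 1.88, against 1.21 for all named genes. Most of it was that of *Lyz2*, with 1471 on HOM and 841 on WT, and *Laptm5*, with 1423 on HOM and 703 on WT. *Ptprc*, the pan-leukocyte CD45 gene, was not detected on either array, with 11.2 on HOM and 3.88 on WT. The part of leukocyte content in the *Itgb7* value was not tested.

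The 9 undetected members, *Itga2*, *Itga4*, *Itga8*, *Itgad*, *Itgal*, *Itgam*, *Itgax*, *Itgb3* and *Itgb8*, had 22 probes, with signals between -11.2 and 15.4 on the HOM array and between -11.5 and 9.58 on the WT array. No fold is given for them, and their transcripts were not detectable at this signal over background. For the 16 detected integrins the median of log2 HOM/WT was 0.07, with 10 values above 0 and 6 below, and it was 0.08 for the 15 that both arrays detected. The 10 detected alpha subunits had a median of 0.01 and the 6 detected beta subunits one of 0.12, against 0.04 for all detected genes.

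**Figure D3:**
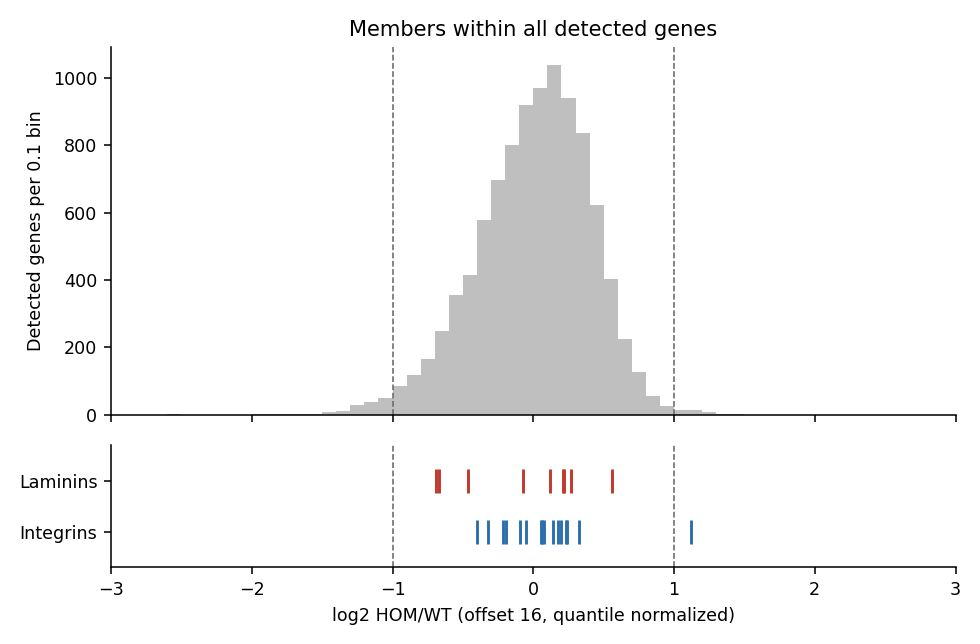
Number of detected genes per bin of 0.1 in log2 HOM/WT over all 9817 detected genes (grey bars), with each detected laminin (red) and integrin (blue) as a tick below and dashed lines at 2-fold. The laminins spread from -0.69 to 0.56, and the integrins from -0.40 to 0.32 apart from *Itgb7* at 1.12.

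The proteins that laminins and integrins work with were described from lists of partners. Of 19 measured partners in the basement membrane, 13 were detected. Their log2 HOM/WT was below 0 for 8, above it for 4 and at 0 for *Agrn*, agrin, and the median was -0.23. *Col4a5*, a chain of the collagen network, was the only one past 2-fold, with 261 on HOM and 676 on WT (log2 HOM/WT -1.63, while its detected probes averaged -1.04). *Nid2*, a nidogen that bridges laminin and collagen, had -0.40. *Dag1*, the dystroglycan receptor for laminin, had -0.39, while its detected probes averaged -0.14. *Bcam*, a receptor for the *Lama5* chain on epithelium, muscle and red cells, had 83.7 on HOM and 40.2 on WT (log2 HOM/WT 0.63). The median of this list was 0.09 without scaling, but the median of all detected genes was then 0.28. The list median thus lay below that of all detected genes with and without scaling. *Lamc1*, at 0.22, and *Nid1*, the nidogen that binds its chain, at -0.23, lay on opposite sides of 0. Without scaling they were at 0.54 and 0.10, on opposite sides of the 0.28 of all detected genes.

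Of 13 measured ligands of integrins other than laminin, 9 were detected. Values above 0 were found for 8 of these, none reached 2-fold, and the median was 0.24. Over all detected genes 53.8% were above 0 and the median was 0.04. On their brightest probes *Fn1*, *Tnc*, *Vcam1*, *Icam1* and *Icam2* were within the probe SD of 0.33. *Tgfb1*, whose latent form is bound by the products of *Itgav* and *Itgb6*, had a signal of 73.7 on HOM and 24.0 on WT (log2 HOM/WT 0.98). The *Tgfb1* value was 0.90 after median scaling, 0.62 with an offset of 50, 1.17 without scaling and 1.34 in the authors' normalized values. *Mfge8*, which bridges cells through *Itgav*, had 0.43 on the log2 scale and *Vtn*, vitronectin, had 0.42. *Cdh1* was the one detected ligand below 0.

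Of 30 measured genes of the adhesion machinery inside the cell, 25 were detected, 11 with a log2 HOM/WT above 0 and 14 below, none past 2-fold, and the median was -0.07. *Cd47*, an integrin-associated membrane protein, had 477 on HOM and 676 on WT (log2 HOM/WT -0.81, while its detected probes averaged -0.40). *Tns1*, tensin, which tethers integrins to actin, had -0.74. On the other side of 0 were the kinase *Src*, with 196 on HOM and 87.3 on WT (0.78), and *Parvg*, the parvin of leukocytes, with 43.2 on HOM and 15.7 on WT (0.74). Of 5 hemidesmosome partners 3 were detected, 1 above 0 and 2 below, with a median of -0.03. *Plec*, plectin, which binds *Itgb4*, had 1671 on HOM and 1046 on WT (log2 HOM/WT 0.35, while its detected probes averaged 0.53). *Krt14* had -0.03 on the log2 scale. *Dst* had -0.26 on its brightest probe but 0.06 as the mean of its detected probes, so its sign depended on the probe.

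**Figure D4:**
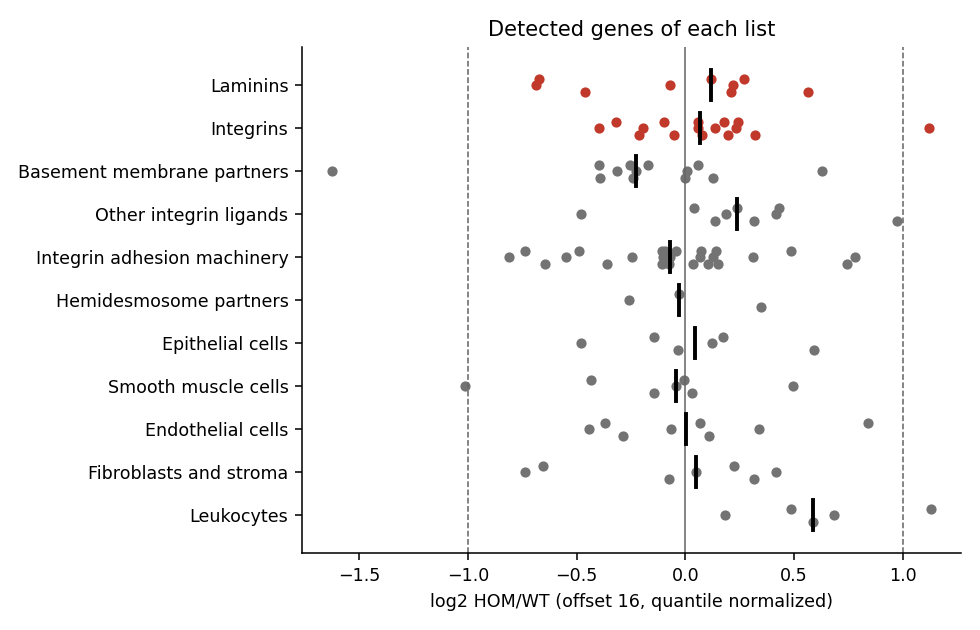
log2 HOM/WT (offset 16, quantile normalized) of each detected laminin and integrin (red) and of each detected gene of the partner and cell type lists (grey), with the list median as a black bar and dashed lines at 2-fold. The medians are 0.12 for laminins and 0.07 for integrins, -0.23 for basement membrane partners and 0.59 for leukocyte markers.

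The promoter stretches of *Itgb7*, the member past 2-fold, and of *Lamb1*, the member that was past 2-fold lower under some settings, are shown because the results turn on these genes. The sequences are from RefSeq (GRCm38.p6), which listed a promoter for 22 of the 34 members, and each holds the 250 bases before the transcription start, 5′ to 3′ on the strand of the gene. The *Itgb7* stretch is chr15:102231936-102232185 on the minus strand and the *Lamb1* stretch is chr12:31265043-31265292 on the plus strand. For both genes the start used in the promoter table lies inside the outermost boundary of the RefSeq gene, so other transcripts begin farther upstream. Capitals mark matches, on either strand, to the GC box (GGGCGG), the CCAAT box (CCAAT), the TATA box (TATAAA), the RUNX core (TGTGGT) or an E-box (CAGGTG).
Itgb7: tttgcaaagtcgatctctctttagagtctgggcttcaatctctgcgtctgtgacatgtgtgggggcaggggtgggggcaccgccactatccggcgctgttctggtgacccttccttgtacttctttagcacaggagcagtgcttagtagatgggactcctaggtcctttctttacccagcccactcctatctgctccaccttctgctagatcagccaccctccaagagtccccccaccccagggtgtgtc
Lamb1: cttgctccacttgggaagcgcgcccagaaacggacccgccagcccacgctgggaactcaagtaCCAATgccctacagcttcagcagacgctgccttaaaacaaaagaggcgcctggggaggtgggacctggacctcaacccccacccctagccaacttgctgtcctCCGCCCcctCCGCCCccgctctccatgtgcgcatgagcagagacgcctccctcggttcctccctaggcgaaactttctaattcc
The *Lamb1* stretch held 2 matches to the GC box, from 84 to 79 and from 75 to 70 bases before the start, and 1 to the CCAAT box, from 187 to 183 bases before it. Over all 32851 listed promoters, 32.7% held a GC box, 33.8% a CCAAT box, 12.4% a TATA box, 14% a RUNX core and 17.2% an E-box in the same stretch. None of these letter runs occurred in the *Itgb7* stretch, which says only that they are not in this window. The stretches were 56% G and C for *Itgb7* and 62% for *Lamb1*, against a median of 52.4% for all listed promoters.

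The members' values were set beside those under other background corrections and scalings. Leaving the arrays unscaled put 19 of the 25 detected members above 0, against 15 after quantile normalization and 14 after median scaling. The unscaled median of all detected genes was itself 0.28, and 73.6% of them had the higher deposited signal on HOM, so the unscaled count is not particular to the members. Without background correction but with 16 still added, no detected member moved by more than the probe SD, with *Lama1* at 0.74 and *Lama4* at 0.25. Leaving out the added value as well put *Lama1* at 1.97 and *Lama4* at 0.58. For the brighter *Lamb2* and *Lamc1* the values were 0.12 and 0.22 with neither, as in the main processing, and without scaling they were 0.43 and 0.54.

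**Figure D5:**
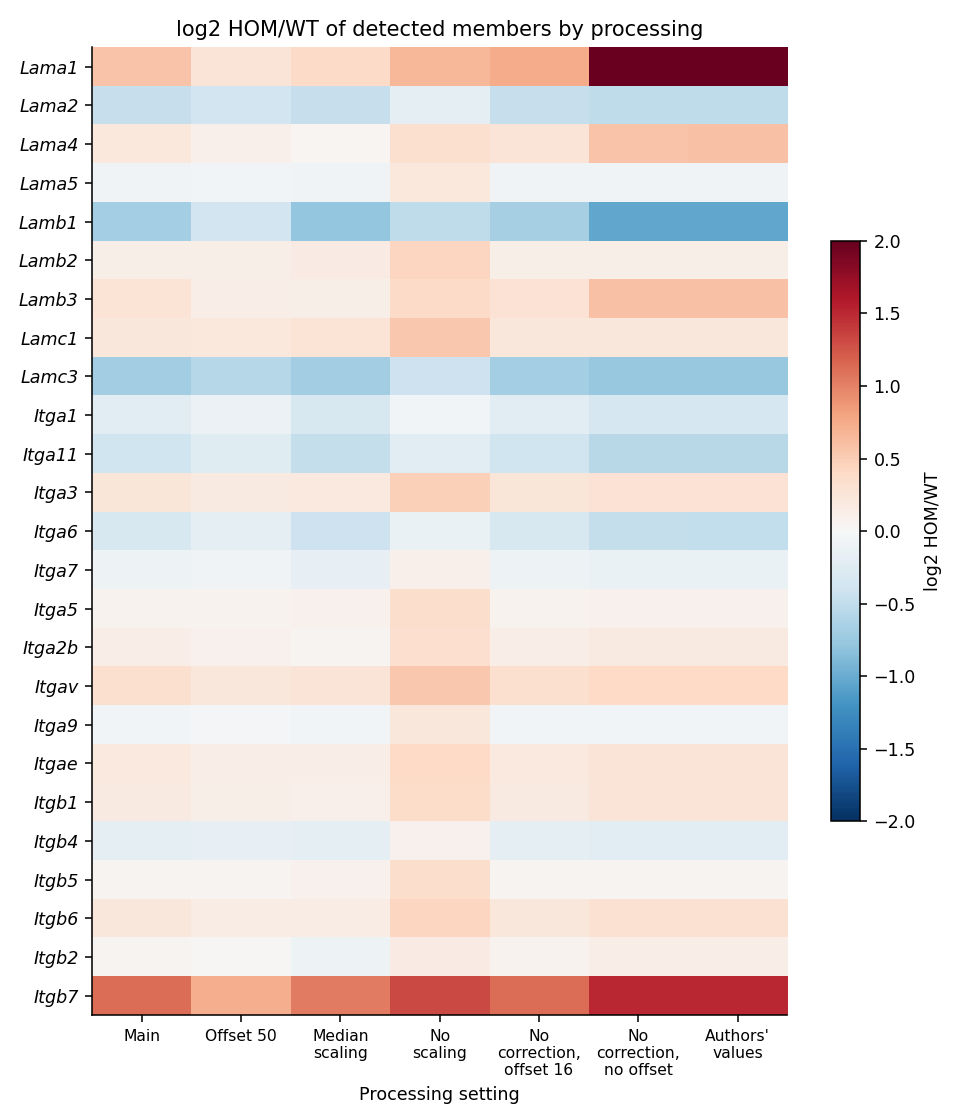
log2 HOM/WT (colour, from blue at -2 to red at 2) of the 25 detected members under the main processing and under 6 others, 1 column each, of which the rightmost is the authors' values and its neighbour has neither background correction nor offset. *Itgb7* is above 0 in every column, from 0.73 to 1.50, and *Lama1* ranges from 0.26 with an offset of 50 to 1.97 with neither correction nor offset, and is 0.74 without correction but with an offset of 16.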

How the data were processed

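RNA labelled as ovary was measured on 1 Illumina MouseWG-6 BeadChip array for HOM and 1 for WT. The authors deposited background-subtracted probe signal intensities, not normalized between arrays, with a detection p-value for each, computed by the authors' Illumina software from negative control beads. They also deposited a second table of intensities, whose values share their quantiles between the arrays. GenomeStudio is named in GEO's processing notes, BeadStudio with robust multichip analysis in the Methods, and no version is given in the sources used here.

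Of 45281 probes, 34885 had 1 gene symbol in the platform annotation, 18 had several and 10378 were not listed, and only the first were used. Signals were corrected with limma's normexp method (limma 3.58.1, R 4.3.3), which read the background level off the detection p-values, then 16 was added and log2 values were quantile normalized. The procedure was tested on simulated data in which only brighter probes were changed, so it did not cover ratios of dim probes such as those of *Itgb7* and *Lamb1*. With 1 array per genotype no test was made. Where 1 array detected a probe, the bound was taken on the normalized scale against the lowest value that the other array detected, or against the probe's own value if higher. It makes no allowance for measurement error.

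All members are named, and in partner lists up to 4 detected genes with the largest absolute log2 HOM/WT and any past 2-fold, with others where they bear on a member. The members and lists were chosen with earlier results of these data known. Alternatives changed the offset, background correction, scaling, detection, fold and probe summary. Precision is limited by the number of arrays and by signal over background, with a median signal of detected probes of 99.2 on HOM and 89.0 on WT.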

Additional observations from a re-analysis of the deposited data

How the results depend on the processing

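The count of members at least 2-fold higher was 1 (*Itgb7*) in the main processing. It was 0 with an offset of 50 or a fold of 3, and 2 (with *Lama1*) with neither background correction nor offset or in the authors' normalized values. The count at least 2-fold lower was 0. It was 1 (*Lamb1*) with neither correction nor offset or in the authors' normalized values, and 2 (with *Lamc3*) at a fold of 1.5. The laminin median of 0.12 was 0.31 without scaling and -0.27 over genes detected on both arrays, and the integrin median of 0.07 was 0.34 without scaling. Leaving out the scaling moved the median of all detected genes to 0.28, and relative to it the families lay 0.03 and 0.06 higher. The share of lower calls over all genes also moved with the scaling, with 41 higher and 146 lower in the main processing, 33 and 168 after median scaling and 154 and 50 without scaling. With neither background correction nor offset 367 were higher and 466 lower, in the authors' values 367 and 467, and with an offset of 50 there were 4 and 48. A setting chosen after seeing the data, with no background correction but 16 still added, gave 51 higher and 161 lower over all genes, 1 and 0 among members, and medians of 0.12 and 0.07. Of 246 recomputed log2 values of members, 237 moved by no more than the probe SD of 0.33. The 9 that moved further were those of *Itgb7*, *Lama1*, *Lama4* and *Lamb1*, all with an offset of 50, with neither correction nor offset or in the authors' values. The sign changed without scaling for 4 members (*Itga7*, *Itga9*, *Itgb4* and *Lama5*), after median scaling for *Itgb2*, and as the mean over detected probes for *Itgb1* and *Itgb4*. Medians were counted as moved beyond 0.1. No paired analysis was possible because each genotype had 1 array.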
